A study of Saccharomyces cerevisiae with 2 samples.

Results

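The 256 genes described here are those that lie closest to the centromeres of budding yeast, 8 on each of the 32 chromosome arms. Their identifiers alone decide which genes belong to the set, and no score enters the rule. A yeast systematic name gives the chromosome, the arm (L or R) and a number that counts outward from the centromere. On each arm the 8 scored genes with the lowest numbers and no suffix in the name were used. They are 256 of 4738 scored rows (5.40%), 4619 of which have an identifier of the plain form that the rule needs. The authors measured chromatin contacts in a swr1Δ strain by Micro-C, in which crosslinked chromatin is digested with micrococcal nuclease and ligated, so that read pairs join nucleosomes that were close in the cell. SWR1 encodes the catalytic subunit of SWR-C, the remodeling enzyme that places the histone variant H2A.Z into chromatin. The strain was a W303 derivative obtained by tetrad dissection, grown in YPD to mid-log phase, and SWR1 is its labelled deletion. The labels give 2 libraries of this strain, of 8804603 and 7314801 read pairs, and the methods of the study give more, so how the libraries entered the scores is not known.

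The measurement is 1 compaction score per gene, computed by the authors from the Micro-C contacts. It has no replicate value, no error and no depth given in the sources used here. Its formula, its log base and the sign that stands for the more compact gene are not given in the sources used here. The values below are therefore given on the authors' scale as higher or lower scores, not as more or less compaction. Genes are not replicates of a condition, so counts and medians of the proximal genes are set beside the same values over all scored genes and no p-value is given. No wild-type scores were used here, and nothing below compares swr1Δ with another strain.

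Budding yeast has point centromeres, short stretches of DNA that hold a single nucleosome with the H3 variant Cse4 and build 1 kinetochore. The flanking chromatin, the pericentromere, is densely loaded with cohesin and condensin and is folded so that it can resist the pull of the spindle. In interphase nuclei the centromeres of all chromosomes gather near the spindle pole body, so that genes beside different centromeres are close to each other in space. Unlike the pericentromeres of many other eukaryotes, those of budding yeast contain ordinary genes of many functions up to the edge of the centromere.

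The identifiers were checked against the gene table of the R64 assembly, which is called sacCer3 in the submitters' processing notes. Of the 256 genes, 254 were found there, the exceptions being YCL007C and YGR011W. On all 32 arms the systematic numbers and the coordinates put the genes in the same order. Among scored genes with plain identifiers, all 254 were also among the 8 nearest by coordinates. The table does not list the centromeres themselves, so distances were counted from the middle of the gap between the annotated genes that flank each one. These gaps measured 630 to 2541 bp, with a median of 984 bp. On chromosome VII, for example, the gap lay between positions 496502 and 497133, and on chromosome V between 150978 and 153520. The nearest scored gene of an arm began or ended 0.503 kb from that point in the median (range 0.316 to 3.18 kb), and the outer end of the 8th gene lay 18.9 kb out in the median (range 12.4 to 34.7 kb). On 28 arms the nearest scored gene carries the number 1. Up to the number of the 8th gene, the table lists 305 genes with plain identifiers, of which 51 have no score, 36 of these under 1000 bp. A further 30 genes with a suffixed identifier lie there and fall outside the rule, although 7 of them have a score. Positions and the nearest scored gene of an arm count plain identifiers alone, here and below. A suffixed scored gene can therefore lie nearer, as YCL001W-A (0.1555) does by its number on the left arm of chromosome III.

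The proximal genes had lower scores than the whole set of genes, by a small amount in the median, and high scores in particular were few among them. The order of the medians held for 8 genes per arm and not for 16, where the median was -0.0357 and so above that of all genes. It was also reversed among genes under 1000 bp (-0.0842 for 83 proximal genes, -0.111 for the others). Among genes of at least 1000 bp it held (-0.101 for 171 proximal genes, -0.0205 for the others). A median of -0.0973 was found for the 256 proximal genes (quartiles -0.347 and 0.116), where all 4738 genes gave -0.0394 (quartiles -0.342 and 0.248). The lower quartiles thus lay close together and the upper quartiles apart. Scores below 0 were found for 158 of the 256 proximal genes (61.7%), where the share over all scored genes was 53.8%. In the top decile of all scores, a group that by construction holds 10.0% of the genes, there were 10 proximal genes (3.91%). In the bottom decile, which also holds 10.0% of all genes, there were 22 (8.59%). The SD of the scores was 0.459 among the proximal genes and 0.555 among all genes.

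**Figure D1:**
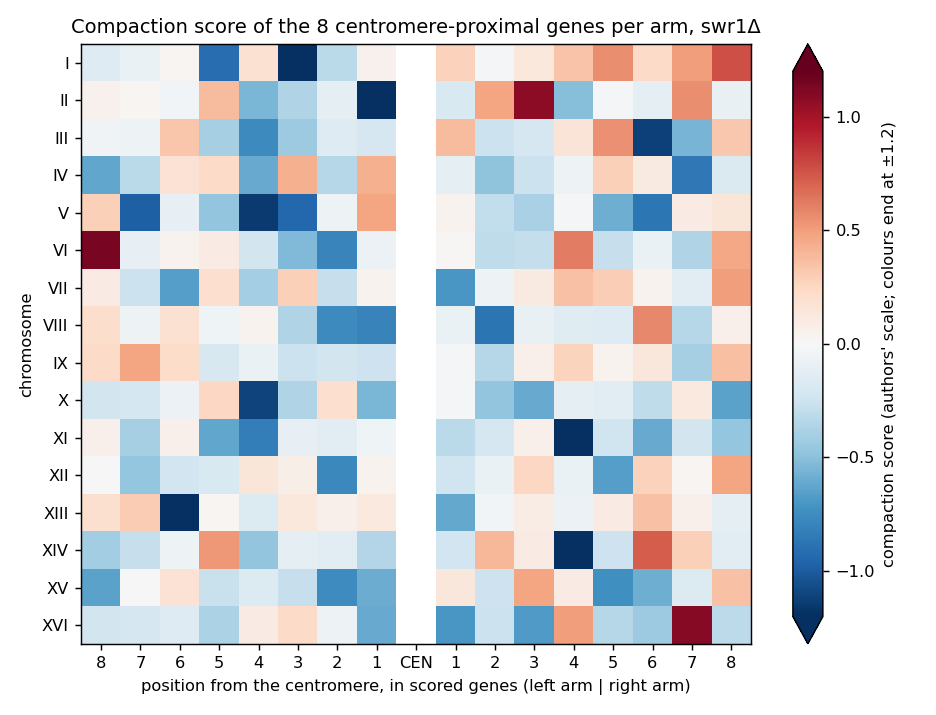
Compaction score of each of the 256 proximal genes in swr1Δ, with 1 row per chromosome and the columns giving the position in scored genes on the left and right arm, counted from the centromere (CEN, left blank). Blue marks scores below 0, the case for 158 genes, and red scores above 0; the colour scale ends at 1.2 in either direction, and MRPL39 (-3.01), HTA2 (-1.32), SWM2 (-1.68), ECM9 (-1.66) and EFB1 (-1.22) lie beyond it.

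The difference from the remaining genes had the same sign on most arms. On 26 of 32 arms the median of the 8 proximal genes was below the median of the other scored genes of the same arm. The difference between these medians was -0.124 in the median over arms (range -0.535 to 0.153). Each arm counted once in this value, although arms held 19 to 412 scored genes. Pooled over genes, the medians were -0.0973 for the proximal genes and -0.0351 for all other scored genes. The proximal median itself was below 0 on 27 of 32 arms, whereas the median of the rest of the arm was below 0 on 16. By whole chromosome, the 16 proximal genes had a lower median than the other genes on 14 of 16 chromosomes. The exceptions were chromosome VII, where the proximal median was 0.0418 and that of the rest -0.0644, and chromosome XIII, with 0.0612 and 0.0076. The gap was widest on chromosome III, with a proximal median of -0.179 against 0.189 for the rest. Among the 14, it was narrowest on chromosomes II (-0.0627 against -0.0584) and IX (0.01385 against 0.0265).

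Taken as sets, the 8 scored genes that follow outward on each arm, and the 8 at each arm's far end, had medians on the other side of the genome-wide median. The next 8 genes per arm had a median of 0.0530 (256 genes, quartiles -0.234 and 0.336), with 44.1% of scores below 0 and 14.5% in the top decile. The 8 most distal genes per arm had a median of 0.124 (quartiles -0.199 and 0.508), with 39.8% below 0 and 21.5% in the top decile. All 4107 genes between the proximal and the distal ones had a median of -0.0391, close to that of all genes. On the right arm of chromosome I, which has 19 scored genes, 5 genes count both among the next 8 and among the distal 8. The spread followed the same order, with an SD of 0.459 among the proximal genes, 0.565 among the next 8 and 0.70 among the distal genes, so that the distal SD was 1.52 times the proximal one.

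**Figure D2:**
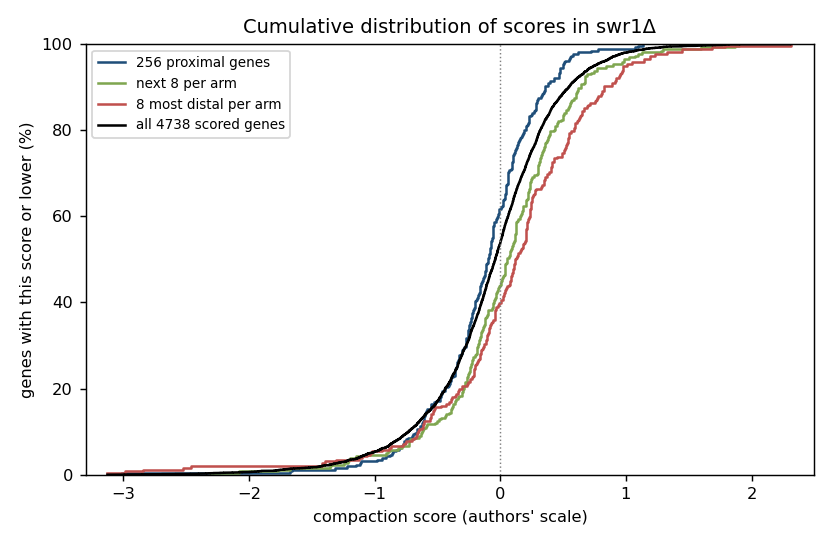
Share of genes (vertical axis, percent) with a given compaction score or a lower one (horizontal axis, authors' scale) for the 256 proximal genes, the next 8 genes per arm, the 8 most distal genes per arm and all 4738 scored genes. At the lower quartile the curves of the proximal genes (-0.347) and of all genes (-0.342) lie close together. Those of the next 8 (-0.234) and the distal genes (-0.199) lie higher there. The upper quartile is 0.116 for the proximal genes, 0.248 for all genes, 0.336 for the next 8 and 0.508 for the distal genes.

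Within the proximal genes the scores were lower close to the centromere than farther out. The 4 nearest genes per arm (128 genes) had a median of -0.143, with 68.8% below 0. The genes at positions 5 to 8 (128 genes) had a median of -0.0602, with 54.7% below 0, and those at positions 9 to 16 (256 genes) the median of 0.0530 given above. Across the 256 genes Spearman's rho of the score with the position was 0.166, and with the distance in kb it was 0.163 (254 genes). These are descriptions across genes of 1 strain, and positions of different arms share the same libraries. The change was not even from place to place. Position 1 had a median of -0.100, position 2 had -0.236, positions 3, 4 and 5 had -0.107, -0.0993 and -0.139, and positions 6 and 7 had -0.00585 and -0.111. Position 8, just inside the limit, had a median of 0.0530 and position 9, just outside it, had 0.0753. The quartiles of positions 1 to 9 overlapped. Low medians were not confined to the proximal genes. Positions 10, 11 and 19 had medians of -0.0619, -0.0773 and -0.114, below the -0.0394 of all genes, and positions 12 to 18 had medians above it.

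**Figure D3:**
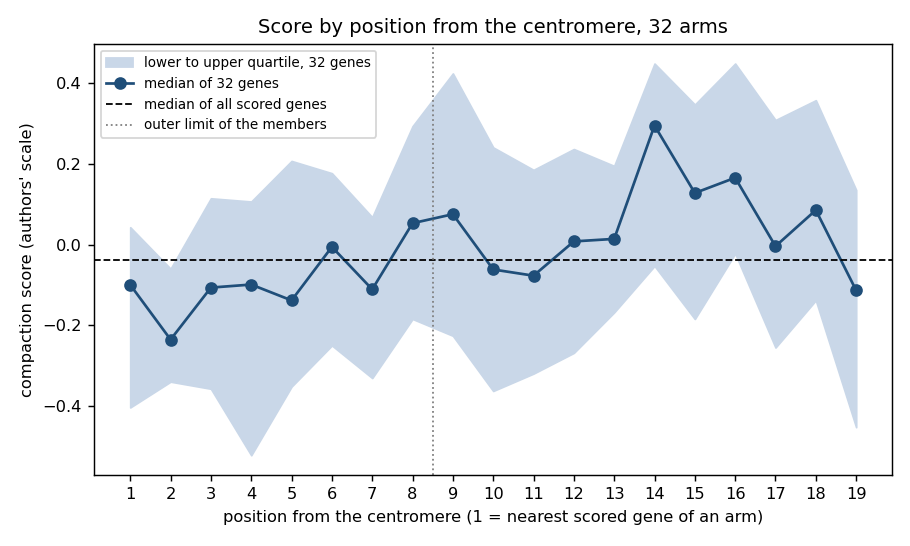
Median compaction score (points) and quartiles (shaded) of the 32 genes at each position from the centromere, up to position 19, the last that every arm has; the dashed line is the median of all scored genes (-0.0394) and the dotted line the outer limit of the proximal genes. The median is lowest at position 2 (-0.236) and highest at position 14 (0.295).

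Position 2 stood lowest in the series of positions. At this place, 28 of 32 genes had a score below 0 (87.5%, against 53.8% over all scored genes), and the 4 exceptions were GLO1 (0.0635), OST1 (0.205), ATO2 (0.395) and RER2 (0.470). The lowest were LEU5 (-0.877), a mitochondrial carrier needed for coenzyme A accumulation, SPB4 (-0.791), an RNA helicase of ribosome assembly, RTT109 (-0.775), the acetyltransferase of H3-K56, HSE1 (-0.766), an endosomal sorting protein, and IZH2 (-0.753), a membrane protein linked to zinc homeostasis. The position was singled out after its values were seen.

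The nearest scored genes of the 32 arms had scores from -1.32 to 0.473, with a median of -0.100, and 21 of them (65.6%) were below 0. None of the 32 was in the top decile of all scores, and 2 were in the bottom decile. These were HTA2 (-1.32), 1 of the genes for histone H2A, and RPL14B (-0.806), for a protein of the large ribosomal subunit. The highest were IRC22 (0.473), of unknown molecular function, and RMD1 (0.430), needed for sporulation. HTA2 lay 2.41 kb from the centromere, as the genes nearer on its arm have no score. Next came YCR001W (0.381), NUP60 (0.273), a nuclear pore protein, and RRP6 (0.135), the nuclear exosome nuclease. Across a centromere the nearest genes of the left and right arm were both below 0 on 7 chromosomes, both above 0 on 2 and of opposite sign on 7. The pairs most alike were DEG1 and LOC1 on chromosome VI (-0.0741 and 0.0170) and HAT1 and CIT3 on chromosome XVI (-0.607 and -0.701). The pair farthest apart was HTA2 and NTH2 on chromosome II (-1.32 and -0.181). HTA2 has a near-identical partner gene, HTA1, RPL4B has RPL4A, and RPL14B has RPL14A; reads from such copies may have been shared or lost in mapping, and the treatment of such reads is not given in the sources used here.

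The scores of genes transcribed toward and away from the centromere differed in either direction, depending on the position. Of the 32 nearest genes, 14 are transcribed away from the centromere, so that their promoters face it, and 18 toward it. Those transcribed away had a median of 0.0294 (quartiles -0.0756 and 0.114), with 6 of 14 below 0. Those transcribed toward it had a median of -0.241 (quartiles -0.587 and -0.0849), with 15 of 18 below 0, and the ranges overlapped widely. The 6 lowest of the 18 were RPL14B (-0.806), SWC4 (-0.694), CDC5 (-0.613), HAT1 (-0.607), PHO80 (-0.599) and PRE3 (-0.550). Among the 14 transcribed away, HTA2 (-1.32) and CIT3 (-0.701) were low. Genes transcribed away also had the higher median at position 2 (-0.214 for 20 genes, -0.263 for 12 transcribed toward), at position 3 (0.0620 for 14, -0.273 for 18), at position 5 (-0.0170 for 17, -0.242 for 15) and, by little, at position 6 (-0.0014 for 14, -0.00585 for 18). The gap was wider at position 3 than at position 1. The order was the opposite at position 4 (-0.246 for 14 genes transcribed away, -0.0857 for 18 transcribed toward), at position 7 (-0.214 for 18, 0.0126 for 14) and at position 8 (-0.112 for 17, 0.0578 for 15). Over all 256 proximal genes, 128 of which are transcribed in each direction, the medians were -0.0801 away and -0.108 toward. The direction was looked at by position after the values had been seen.

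**Figure D4:**
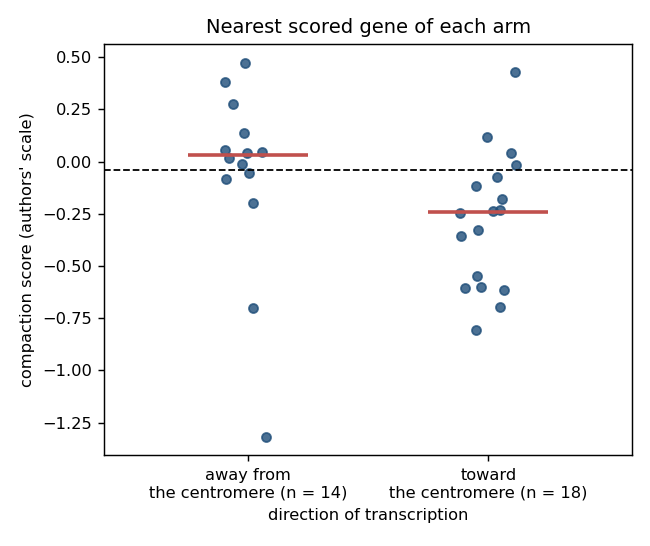
Compaction score (authors' scale) of the nearest scored gene of each of the 32 arms, split by the direction of transcription relative to the centromere; each point is 1 gene, the red bars are medians (0.0294 and -0.241) and the dashed line is the median of all scored genes. The points of the 18 genes transcribed toward the centromere mostly lie below those of the 14 transcribed away, and the 2 sets overlap.

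The absolute score difference between neighboring proximal genes was somewhat smaller than elsewhere, in a set whose scores also had the smaller SD. The rank correlation between neighbors was lower among the proximal genes. Over the 224 pairs of adjacent proximal genes, Spearman's rho was 0.0294 and 54.5% of pairs had the same sign. The median absolute difference within a pair was 0.362 (quartiles 0.181 and 0.668). For the 4331 adjacent pairs of the remaining arm genes, rho was 0.10, 53.1% of pairs had the same sign and the median absolute difference was 0.426. For the 16 pairs that face each other across a centromere the median difference was 0.484. The range of the 8 scores within an arm had a median of 1.11 and reached from 0.725 on the left arm of chromosome IX to 3.32 on the left arm of chromosome XIII.

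The arm medians ran from -0.328 to 0.305. Lowest was the right arm of chromosome XVI (-0.328), where CIT3, PDH1 and ICL2, all genes of mitochondrial citrate and propionate metabolism, had scores of -0.701, -0.255 and -0.438. There, YPR003C, HAL1 and HAA1 had scores of -0.682, -0.344 and -0.313. The other members of that arm were high: AIM45 had 0.498 and REC8, the meiotic cohesin subunit, 1.10, so 6 of 8 genes lay below 0. The left arm of chromosome V had the next lowest median (-0.286). On it VAB2 (-1.15), a protein of the endosomal BLOC complex, GCN4 (-0.983), the activator of amino acid synthesis, YEA4 (-0.940), a nucleotide-sugar transporter, and YEA6 (-0.476), a mitochondrial carrier, lay well below the genome-wide median. In contrast, IRC22 (0.473) and GLC3 (0.284), the glycogen branching enzyme, stood above it, with WBP1 (-0.0570) and MIT1 (-0.0964) between. Position 9 of these arms, just outside the limit, held SUT2 (-0.118) on chromosome XVI and UBC8 (0.599) on chromosome V.

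At the other end, the right arm of chromosome I had a median of 0.305 and 1 of 8 genes below 0. That gene was SWD1 (-0.0119), a subunit of the H3-K4 methyltransferase complex. The others were RFA1 (0.130) of the single-strand DNA binding complex, KIN3 (0.227), a protein kinase, NUP60 (0.273), BUD14 (0.338), CDC15 (0.504), the mitotic exit kinase, ADE1 (0.554) of purine synthesis and PAU7 (0.776). PAU7 belongs to a family of closely similar genes, so its score is uncertain. This arm is the one with the fewest scored genes, and its 8th gene, PAU7, was followed by DFP1 (-0.239). The left arm of chromosome XIII had the next highest median (0.0901), although it holds MRPL39 (-3.01), the lowest score of all 256 genes. Its other 7 genes lay between -0.168 (YAP1, a regulator of the oxidative stress response) and 0.302 (SPT5, a transcription elongation factor). They included YPT7 (0.117), GLO1 (0.0635), TRM12 (0.126), ERG6 (0.0261) and RAD33 (0.189), and at position 9 ERV25 had 0.0368. Left arms had a median of -0.134 and right arms -0.0773 (128 genes each). The right arm median was the lower one on 6 of 16 chromosomes, so the order of the sides differed between chromosomes.

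Most of the lowest scores belonged to short genes. MRPL39, for a protein of the large subunit of the mitochondrial ribosome, is 213 bp long (chromosome XIII, 251304 to 251516) and had a score of -3.01, with 1 gene of the genome below it. SWM2 (-1.68, chromosome XIV, 635943 to 636383), with a role in snRNA cap methylation, is 441 bp long and had 64 genes below it. ECM9 (-1.66, chromosome XI, 446799 to 448036), of unknown function, is 1238 bp long and had 68 below it. HTA2 (-1.32, chromosome II, 235394 to 235792) is 399 bp long. EFB1 (-1.22, chromosome I, 142174 to 143160), for a translation elongation factor subunit, is 987 bp long. VAB2 (-1.15), YCR006C (-1.12) and SYS1 (-1.11), a Golgi membrane protein, complete the 8 lowest and measure 849, 474 and 612 bp. ECM9 was thus the 1 gene of the 8 that is longer than 1000 bp.

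The highest scores came from genes of different lengths. WWM1 (1.14, chromosome VI, 115108 to 115743), a protein with a WW domain, had 61 genes of the genome above it. It is the outermost proximal gene of its arm, 33.0 kb from the centromere, with BLM10 (6432 bp) among the genes inside it, and its outer neighbor HXT10, a hexose transporter gene, had 1.07. REC8 (1.10, chromosome XVI, 569336 to 571378) had 67 genes above it and COQ1 (1.07, chromosome II, 242809 to 244230), of ubiquinone synthesis, had 77. They were followed by PAU7 (0.776), ATG3 (0.726), a conjugating enzyme of autophagy, RPN11 (0.617), the deubiquitinase of the proteasome lid, STP2 (0.580), a transcription factor of amino acid sensing, and FLR1 (0.562), a drug exporter. With ADE1 (0.554) and CIT2 (0.548) these make up the 10 proximal genes in the top decile.

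The proximal genes were close to the other genes in length. Their median length was 1314 bp, against 1347 bp over all scored genes found in the gene table, and 32.7% of them were under 1000 bp, against 31.6%. Spearman's rho of score with length was 0.0659 over 254 proximal genes and 0.0828 over 4331 others. The 171 proximal genes of at least 1000 bp had a median of -0.101 and 62.6% of scores below 0, where other genes of that length had -0.0205 and 52.2%. The 83 shorter proximal genes had a median of -0.0842 and 60.2% below 0, where other short genes had -0.111 and 56.0%. The proximal median was thus the lower one among longer genes and the higher one among short genes. The spread was narrower in both classes, with SDs of 0.374 against 0.447 for longer genes and 0.593 against 0.709 for shorter ones. With each score taken relative to the median of its length class (10 classes), the proximal median was -0.0569, that of the other genes 0.0031 and that of the distal genes 0.160.

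**Figure D5:**
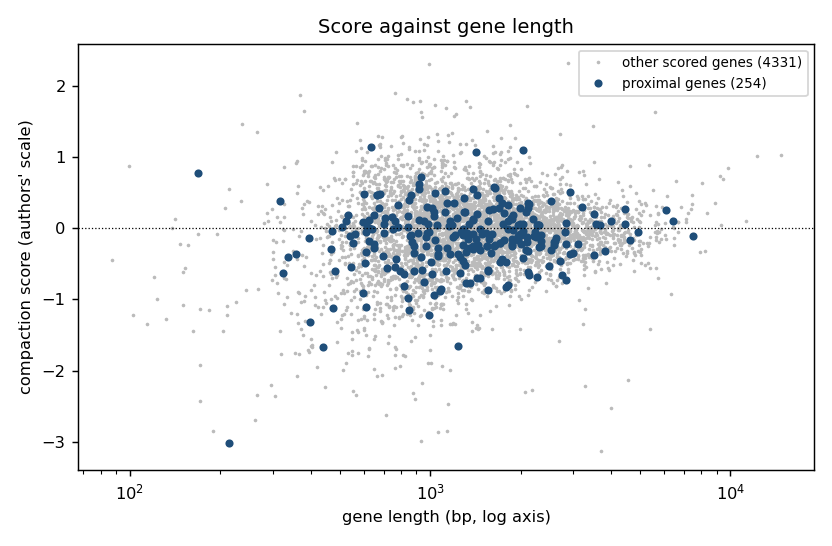
Compaction score (authors' scale) against gene length (bp, log axis) for the 254 proximal genes with a known length (blue) and 4331 other scored genes (grey). Scores spread more widely among short genes in both sets, and the proximal genes reach 1.14 at most, while other genes reach 2.31.

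Cytosolic ribosomal protein genes were a smaller share of the proximal genes than of all scored genes. There were 2 among the proximal genes (0.781%), RPL14B (-0.806) and RPL4B (-0.854), and 119 among all scored genes (2.51%). Without them the proximal median was -0.0933 and that of all genes -0.0281. Genes close to a tRNA gene were somewhat more frequent: 9.45% of the proximal genes lay within 1 kb of one, against 5.98% of the other arm genes. These 24 genes had a median of -0.0066, with 12 below 0 (50%), and the other 230 had -0.109, with 63.0% below 0. The 255 other arm genes within 1 kb of a tRNA gene had -0.0189, with 51.8% below 0. Among the 24, REC8 (1.10) was the highest and YCR006C (-1.12) the lowest. Genes without a standard name made up 13 of the 256, with a median of -0.237 and 9 below 0 (69.2%). The 443 other scored genes without one had a median of -0.0214 and 51.9% below 0, and all scored genes had 53.8%. The 13 proximal ones ranged from YCR006C (-1.12) and YCL007C (-0.765) to YCR001W (0.381) and YGR011W (0.499).

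The proximal genes were also read by what their products do. For this, 100 of the 256 were placed in 11 groups by textbook function, a grouping made after the scores had been seen and used as description alone. The other 156 were placed in none, and the groups do not hold every proximal gene of a function. The counts of scores below 0 in these small groups stand against 53.8% over all scored genes and 61.7% over all proximal genes, and nothing particular to a group is read from them. The chromatin and histone genes had a median of -0.278 and 10 of 12 were below 0 (background 53.8%). They included RTT109 (-0.775), HAT1 (-0.607), a histone H4 acetyltransferase, LDB7 (-0.551) and RSC4 (-0.217) of the RSC remodeler, NHP10 (-0.339) of INO80, and SIN3 (-0.162), a histone deacetylase subunit. SWC4 (-0.694) and SWC3 (-0.152), subunits of SWR-C, the complex whose catalytic subunit is deleted in this strain, also belong here. HIR1 (0.380), a histone chaperone, and SGF29 (0.331) of SAGA were the 2 members above 0.

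Genes of chromosome segregation and cell division had a median of 0.176 and 4 of 12 were below 0 (33.3%, where all scored genes had 53.8% and all proximal genes 61.7%). The cohesin genes SMC1, MCD1 and REC8 had scores of 0.0421, 0.429 and 1.10. DSN1 (0.357) encodes a kinetochore protein, NSE1 (0.281) a subunit of the SMC5-SMC6 complex, CDH1 (0.290) an activator of the anaphase-promoting complex, and SFI1 (0.0713) a protein of the spindle pole body. The members below 0 were CDC5 (-0.613), the polo kinase, CDC10 (-0.254), a septin, CHL1 (-0.201), a helicase of cohesion, and CDC4 (-0.0982), an F-box protein. The 10 genes placed under transcription machinery lay between -0.159 (TFC8) and 0.354 (TFG2, a TFIIF subunit), with a median of 0.0758 and 4 below 0. Among them, TFC3 of TFIIIC had 0.0542, TAF4 of TFIID 0.103 and MED2 of Mediator 0.226. This range depends on which genes were placed in the group, and BYE1 (-0.827) was left out of it.

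Of 11 genes placed under ribosome biogenesis, 9 were below 0, with a median of -0.130. Here and in the groups that follow, the share over all scored genes is 53.8% and over all proximal genes 61.7%. SPB4 (-0.791), TSR3 (-0.590), NUG1 (-0.586) and MPP10 (-0.472) were lowest, and RLP24 (0.473) was the highest. Not every such gene was placed there: LOC1 (0.0170) and RRP6 (0.135), both above 0, were left out. The 11 genes of DNA replication and repair had a median of -0.257 and 7 below 0, from DNL4 (-0.733), the ligase of end joining, to RAD33 (0.189). The 6 mitochondrial ribosomal protein genes were spread from MRPL39 (-3.01) to MRP7 (0.518), with a median of -0.172. The 6 proteasome genes were split evenly in sign, from PRE3 (-0.550) to RPN11 (0.617), with BLM10, the proteasome activator, at 0.0978. The 12 genes placed under membrane traffic had a median of -0.154 and 8 below 0, and reached from SYS1 (-1.11) to ERP2 (0.182). The endosomal genes VAB2 (-1.15) and HSE1 (-0.766), named above, were not placed there. The 10 sterol and lipid genes had a median of -0.0372 and 5 below 0. The paralogs LAC1 and LAG1, for ceramide synthase subunits beside different centromeres, had -0.626 and -0.356.

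Of 5 genes placed under amino acid synthesis, 4 were below 0, beside 53.8% of all scored genes. The lowest of them was GCN4 (-0.983), an activator of such genes and not itself a synthesis gene. TRP1, a classical centromere-linked marker beside the centromere of chromosome IV, had a score of 0.282, and MET14, the marker beside that of chromosome XI, had -0.0542. LEU1 on chromosome VII and ILV6 on chromosome III had -0.255 and -0.398. LEU2, another marker of chromosome III, lies outside the 8 nearest genes of its arm and had -0.388, and CDC9, far out on chromosome IV, had -0.195. The 3 citrate synthase genes of yeast all lie beside centromeres, with scores of -0.231 (CIT1, chromosome XIV), 0.548 (CIT2, chromosome III) and -0.701 (CIT3, chromosome XVI).

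Each chromosome can also be read by its lowest and highest proximal gene. On chromosome I these were EFB1 (-1.22) and PAU7 (0.776), on chromosome II HTA2 (-1.32) and COQ1 (1.07), and on chromosome III YCR006C (-1.12) and CIT2 (0.548). Chromosome IV ran from RPL4B (-0.854) to RMD1 (0.430), and chromosome V from VAB2 (-1.15) to IRC22 (0.473). On chromosome VI the lowest was SPB4 (-0.791) and the highest WWM1 (1.14). Chromosome VII ran from SWC4 (-0.694) to YGR011W (0.499), and PMA1, the plasma membrane proton pump, had -0.663 there. Chromosome VIII ran from LEU5 (-0.877) to STP2 (0.580). The narrowest range was that of chromosome IX, from MSL1 (-0.403), a U2 snRNP protein, to NAS2 (0.470), a proteasome assembly chaperone. On chromosome X, with a median of -0.217, 13 of 16 genes were below 0 (81.2%, beside 53.8% of all scored genes and 61.7% of all proximal genes), from SYS1 (-1.11) to CYR1 (0.248), the adenylate cyclase. Chromosome XI, with a median of -0.230 and also 13 of 16 below 0, had no gene above 0.0656 (PRP40, a splicing factor), and its lowest was ECM9 (-1.66). Chromosome XII ran from RTT109 (-0.775) to RLP24 (0.473), chromosome XIII from MRPL39 (-3.01) to PLB2 (0.351), a phospholipase, and chromosome XIV from SWM2 (-1.68) to ATG3 (0.726). On chromosome XV the lowest was IZH2 (-0.753) and the highest YSP3 (0.472). Chromosome XVI had the lowest median of all, -0.236, and reached from CIT3 (-0.701) to REC8 (1.10).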

How the data were processed

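Per the labels, Micro-C was carried out on 2 swr1Δ libraries. The deposited compaction score, 1 value per gene, was made by the authors, and its formula, log base, centring and length correction are not given in the sources used here. The authors also deposited counts of read pairs at distances of 1 to 10000 bp, which were summed here to library totals and used for nothing else. The submitters' processing notes name CASAVA 1.8.2, Bowtie2 and sacCer3, without roles. There were 0 per-sample columns left unused.

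Members were taken by identifier. Names not in the score file, gene lengths and coordinates came from the R64 gene table, in which 4585 of 4738 rows (96.8%) were found. Length was adjusted for in 10 classes. Cytosolic ribosomal protein genes were taken by symbol. Named genes were the nearest gene of each arm, the 8 lowest and 8 highest scores, the extremes of each chromosome, the 2 lowest and 2 highest arms, ribosomal protein genes and centromere-linked markers; others named were chosen after their values were seen. The members and lists were chosen with earlier results of these data known. With 1 score per gene no test was made. The functions were tested on simulated data, and run in Python 3.11.15. Tables were handled in pandas 2.3.3, quantiles and correlations came from numpy 2.4.6 together with scipy 1.17.1, and plots were drawn in matplotlib 3.10.9. No sequences were printed.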

Additional observations from a re-analysis of the deposited data

How the results depend on the processing

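Alternatives were judged by whether they left the 95% interval of the value over genes, taken from binomial order statistics for medians, the Wilson method for shares and normal theory for SDs. These intervals take genes as independent and were used for this purpose alone. The median score of -0.0973 was -0.0357 with 16 genes per arm, which lies above the -0.0394 of all genes and so turns the order. With adjustment for length it was -0.0569. That value is relative to the medians of the length classes, so it is not on the scale of -0.0973. The other genes had 0.00305 with adjustment (4331 genes) and -0.0351 without it (4482 genes). The unadjusted mean of the proximal genes was -0.138. The share of scores below 0, 61.7%, was 68.8% with 4 genes per arm and 52.9% with 16, a value under the 53.8% of all genes. The SD of 0.459 was 0.508 with 12 genes per arm, 0.521 with 16, 0.374 for genes of at least 1000 bp and 0.593 for shorter ones. Both the median and the share thus depend on where the limit is set. The cause was not tested. Without 1 chromosome at a time the median ran from -0.112 (without XIII) to -0.0841 (without XI), the share from 60.4% to 63.3% and the SD from 0.431 (without XIII) to 0.468. The absolute difference of neighboring genes, 0.362, was 0.426 among other genes and 0.484 across centromeres. The difference of right and left arm medians was 0.0570, and 0.144 and 0.0218 with 4 and 16 genes per arm. That of genes transcribed away from and toward the centromere was 0.0280, and 0.122 and -0.0292 with 4 and 16, so its sign was not constant. No paired analysis was possible because the scores carry no replicate numbers and both libraries are of 1 strain. Replicates could not be left out for the same reason.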
